A study of Mus musculus with 81 samples.

Results

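Mitochondrial ribosomal protein genes were described in single pancreatic cells of mouse embryos. The members were every gene whose symbol begins with Mrpl or Mrps followed by a digit: 76 genes of 22869 gene symbols, 47 named for the large subunit (Mrpl) and 29 for the small subunit (Mrps). Where a gene had several transcript rows, the one of highest mean over the cells stood for it. The members lie on 17 chromosomes. The cells came from pancreata of CD1 embryos at embryonic day 13.5, a stage at which the epithelium that forms exocrine and endocrine tissue grows inside a mesenchyme. They were dissociated with trypsin and captured one by one on a microfluidic device, with one library per cell, 81 in all. The labels give 1 group, state no treatment and no genotype beyond the CD1 strain, and do not say which animal a cell came from. The 81 cells therefore count as 1 sample, no test was made, and each SD given is over cells.

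The mitochondrial ribosome is the machine inside mitochondria that translates the few messages encoded by mitochondrial DNA, all of them for subunits of the respiratory chain and the ATP synthase. Its own proteins are encoded in the nucleus, made in the cytosol and imported. The large subunit holds the site of peptide bond formation and the exit tunnel, and the small subunit holds the messenger RNA and the decoding centre. Symbols follow the old naming and not the structures in every case. Mrps30 and Mrps18a sit in the large subunit in resolved mammalian mitochondrial ribosomes, and the Mrps36 product is now known as a component of the 2-oxoglutarate dehydrogenase complex.

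Values were RPKM (reads scaled to the length of the transcript and to the size of the library), so levels of different genes can be set side by side. The estimated depth had a median of 3.53M reads per cell and lay between 1.66M and 5.37M in 77 cells. The other 4 cells, C3, C43, C61 and C94, had an estimated 19.7K to 418.3K reads, so that 1 read in them can be worth more than 1 RPKM. In the median cell 1 RPKM in a transcript of 1 kb stands for 3.53 reads. A gene is called detected in a cell at 1 RPKM or more. Cells were named from lists of markers when at least 3 markers of a list reached 10 RPKM. Where several lists did, the first in the order leukocyte, endothelial, endocrine, epithelial and mesenchymal gave the name. This gave 5 epithelial-like, 2 endocrine-like, 5 leukocyte-like, 2 endothelial-like and 65 mesenchymal-like cells, and left 2 unnamed, of which C45 had 6 neural crest markers, a list used to check cells and not to name them. No doublet caller was run on so few cells.

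Members were expressed at higher levels and in more cells than most genes, and none of them was detected everywhere. Their mean levels had a median of 23.3 RPKM, against 0.719 RPKM over all gene symbols. A total of 40 of the 76 members (52.6%) were detected in at least 50% of the cells, against 13.1% of all gene symbols and 22.6% of the 13237 genes above 0 in at least 3 cells. Of the large-subunit members 27 of 47 were detected that widely, and of the small-subunit members 13 of 29. The median share of cells with a member detected was 53.1% for the large subunit and 43.2% for the small. Moving Mrps30 and Mrps18a to the large subunit and leaving out Mrps36 gave 28 of 49 and 12 of 26.

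Levels differed strongly between members. The highest mean was 143.9 times the lowest, that of Mrps36, and 130.4 times the next, that of Mrpl23, while the 90th percentile of the means was 8.44 times the 10th. Means of 50 RPKM or more were reached by 16 members, and 10 members stayed under 10 RPKM. Members with a higher mean were detected in more cells (Spearman correlation 0.73 over 76 members). The level in the cells that did have a member varied as well, with medians over detected cells between 2.79 and 174.0 RPKM. Each member was above 0 in at least 19 cells, and 17 members had a median of 0 over all 81 cells.

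**Figure D1:**
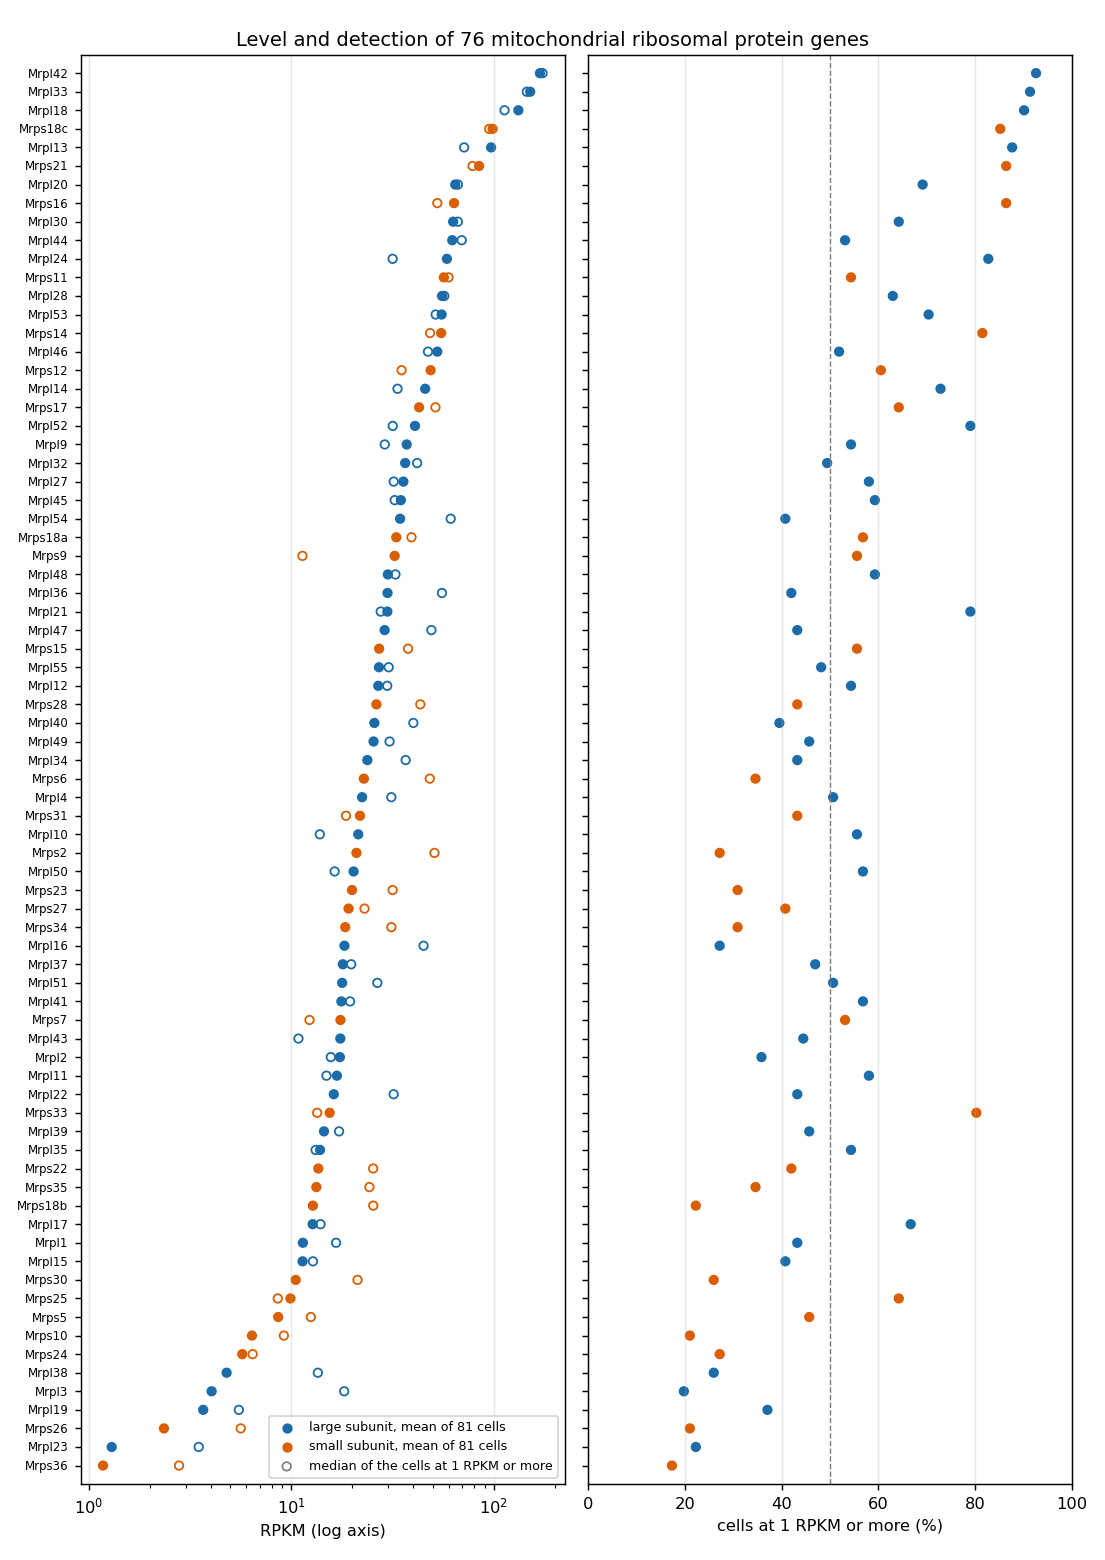
Mean RPKM over 81 cells (filled points) and median over the cells at 1 RPKM or more (open points) on a log axis, and percent of cells at 1 RPKM or more, for the 76 members ordered by mean; colours mark large and small subunit. Mrpl42, Mrpl33 and Mrpl18 lead at 168.9, 151.2 and 132.2 RPKM, Mrps36 and Mrpl23 are lowest at 1.17 and 1.30 RPKM, and the dashed line marks 50% of cells.

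The 3 members of highest mean belonged to the large subunit. Mrpl42, a subunit specific to mitochondria (chromosome 10, 94943440 to 94964561, minus strand, mm9), ranged from 0 to 577.3 RPKM with a median of 167.0, a mean of 168.9 ± 125.3 RPKM (SD over 81 cells) and detection in 75 cells (92.6%, exact 95% interval 84.6% to 97.2%). Mrpl33, the counterpart of bacterial L33 (chromosome 5, 31916324 to 31925017), ranged from 0 to 821.9 RPKM with a median of 121.1 and was detected in 74 cells. Mrpl18, of the bacterial L18 family (chromosome 17, 13104221 to 13108957), ranged from 0 to 491.4 RPKM with a median of 98.3 and was detected in 73 cells. Together these 3 genes held 25.8% of the summed means of the 47 large-subunit members. The cells that lacked one of them were few, and the SD over cells of each was larger than the gaps between their means.

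Mrpl13, of the L13 family, averaged 97.0 ± 110.0 RPKM and was detected in 71 cells. Mrpl20 averaged 64.5 ± 87.1 RPKM in all cells and was detected in 56, and Mrpl30 averaged 62.95 ± 84.1 RPKM and was detected in 52. Mrpl20 and Mrpl30 were thus missing from more cells than the 4 members above them.

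In the small subunit Mrps18c led, one of 3 mammalian relatives of bacterial S18 (chromosome 5, 101227778 to 101233486, mm9). It ranged from 0 to 604.4 RPKM with a median of 44.2, averaged 98.6 ± 115.9 RPKM and was detected in 69 cells. Its relatives were lower: Mrps18a averaged 32.97 ± 57.1 RPKM with detection in 46 cells, and Mrps18b averaged 12.8 ± 48.97 RPKM with detection in 18. The Mrps18b mean was 8.25 RPKM without the 4 shallow cells, one of which, C94, held its highest value of 399.1 RPKM. Of the 50-base windows of the Mrps18b transcript 63.7% also occur in transcripts of other genes, so its reads may be split between them. For Mrps18c the share was 22.4%.

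Mrps21, the counterpart of bacterial S21, averaged 84.6 ± 82.1 RPKM, and Mrps16, in which a human mutation causes combined oxidative phosphorylation deficiency, averaged 63.6 ± 74.1 RPKM. Both were detected in 70 cells. Other genes share 16.9% of the windows of Mrps21 and 3.01% of those of Mrps16. Mrps14 (54.9 ± 71.8 RPKM) was detected in 66 cells and Mrps12, a protein of the decoding centre (48.7 ± 86.5 RPKM), in 49. Mrps12 and Mrps14 had medians of 7.78 and 29.7 RPKM, so of genes with like means one was spread over more cells.

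At the other end stood members that most cells lacked. Mrps36 averaged 1.17 ± 4.51 RPKM and was detected in 14 cells (17.3%, 9.78% to 27.3%), and Mrpl23, of the exit tunnel, averaged 1.30 ± 4.02 RPKM with detection in 18. Pseudogene transcripts share 50-base windows with both, 38.9% of the windows of Mrps36 and 76.4% of those of Mrpl23, so their levels are uncertain. Mrpl3, a core protein of the large subunit (chromosome 9, 104955598 to 104979806), shares no window and averaged 4.04 ± 10.9 RPKM, with detection in 16 cells (19.8%, 11.7% to 30.1%) and a highest value of 54.5 RPKM in C12. Mrpl38 (4.79 ± 12.5 RPKM) was detected in 21 cells, Mrps26 (2.35 ± 7.27 RPKM) in 17, and Mrps10 (6.39 ± 20.5 RPKM) in 17. Mrpl19 averaged 3.67 ± 7.97 RPKM over all cells, was detected in 30 and overlaps AW146020 on the other strand over 1253 bases in the deposited coordinates.

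Members of known place in the particle also differed in level. Around the exit tunnel Mrpl24 averaged 58.6 ± 82.7 RPKM, Mrpl4 22.3 ± 36.6 RPKM, Mrpl22 16.2 ± 27.4 RPKM and Mrpl45, which holds the ribosome to the inner membrane, 34.7 ± 56.8 RPKM. Mrpl24 shares 833 bases with Rrnad1 on the other strand, and the kit is not known to mark strand. In the stalk that binds translation factors, Mrpl12 averaged 26.9 ± 46.04 RPKM, its base Mrpl10 21.4 ± 46.7 RPKM and the neighbouring Mrpl11 16.8 ± 25.8 RPKM. In the small subunit Mrps9 and Mrps7, both of the head, averaged 32.4 ± 90.05 and 17.5 ± 42.5 RPKM, and Mrps5 averaged 8.60 ± 15.3 RPKM. Mrps22 and Mrps34, whose human mutations also cause respiratory chain deficiency, averaged 13.6 ± 25.9 and 18.4 ± 50.2 RPKM. The stalk members lay closer together than the tunnel members, and the SD of each was larger than its mean.

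Transcript length moved with these levels. Longer members had lower means (Spearman correlation -0.41 over 76 members) and a weaker relation to the share of cells (-0.17). Over the 46 members with under 10% shared windows the values were -0.48 and -0.11. The lengths are those of GENCODE vM21. Over the 72 members whose length is within the mm9 span of the gene the values were -0.43 and -0.17. RPKM divides reads by length, so level and length are not independent. The part of length in the order of the levels was not tested. Shared windows had no such relation to the mean (0.04).

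Proteins of the mitochondrial ribosome that carry other symbols were at like levels. Of 7 measured, 4 were detected in at least 50% of cells, with a median mean of 23.2 RPKM. Chchd1 was highest at 79.98 ± 102.0 RPKM, Ict1, the peptide release protein built into the large subunit, had 42.2 ± 73.7 RPKM, and Mrp63 was lowest at 2.58 ± 6.497 RPKM. Other genes of mitochondrial translation, of ribosome assembly and of mitochondrial DNA transcription and maintenance were lower. Among 11 mitochondrial translation factors 2 were detected that widely, with a median mean of 9.64 RPKM, led by the elongation factor Tufm (26.3 ± 29.1 RPKM, 64 cells) and the initiation factor Mtif2 (16.9 ± 30.3 RPKM, 47 cells). Among 17 mitochondrial aminoacyl-tRNA synthetases 1 was (median mean 3.89 RPKM). Among 16 assembly factors 3 were (5.92 RPKM), and among 8 genes of mitochondrial DNA transcription and maintenance 2 were (5.94 RPKM).

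Nuclear genes of the respiratory chain and ATP synthase, and genes of the cytosolic ribosome, were higher. Of 77 nuclear genes of the respiratory chain and ATP synthase 74 were detected in at least 50% of the cells, with a median mean of 92.9 RPKM. Of 82 genes of the cytosolic ribosome 74 were, with a median mean of 32.97 RPKM. Members (40 of 76, 23.3 RPKM) lay between these groups and the translation factors.

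Within a cell, the large-subunit members were at a higher level than the small-subunit members in most cells. The mean over the 47 large-subunit members was 37.3 ± 11.9 RPKM per cell (13.9 to 70.2, SD over 81 cells), and over the 29 small-subunit members it was 27.9 ± 11.5 RPKM (3.44 to 68.5). The difference of log2(RPKM + 1) had a median of 0.49 and was above 0 in 60 of 81 cells. Without Mrpl42, Mrpl33 and Mrpl18, chosen after their values were seen, the mean of the large-subunit members was 29.6 RPKM, close to the level of the small subunit, whose own highest members were kept. The lowest small-subunit level was in C14 and the highest in C94, a shallow cell.

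**Figure D2:**
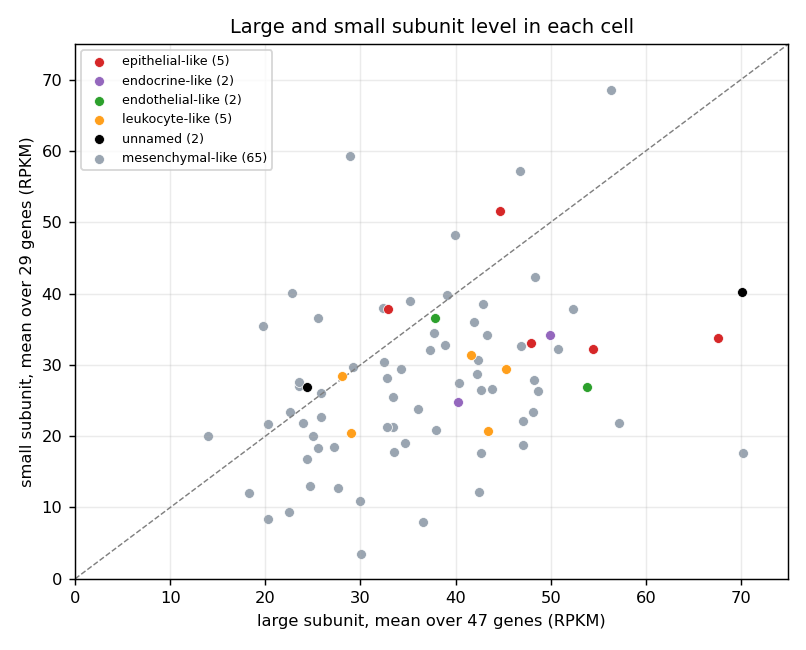
Mean RPKM over the 47 large-subunit genes (x) and over the 29 small-subunit genes (y) in each of 81 cells, coloured by cell class; the dashed line marks equal levels. In 60 of 81 cells the large-subunit level was the higher, and the points scatter widely (Spearman correlation 0.35).

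The subunit levels rose and fell together only loosely. Their Spearman correlation over 81 cells was 0.35 (Pearson 0.34), 0.34 over the 77 cells without the shallow ones, and 0.32 within the 65 mesenchymal-like cells. These levels are means of RPKM. With the mean of log2(RPKM + 1), the scale of the gene lists below, the values were 0.48 (Pearson 0.52), 0.49 and 0.37. Between 2 single members the Spearman correlation was lower still, with a median of 0.05 over 2850 pairs. Its 5th to 95th percentile range was -0.13 to 0.24. Pairs within the large subunit (0.06), within the small subunit (0.05) and across subunits (0.05) had like medians. The median was 0.02 over all pairs of the 2985 genes detected in at least 50% of cells, and 0.06 over pairs of the 74 respiratory chain genes detected that widely. The highest pair was Mrps25 with Mrps36 (0.42, both detected in 13 cells), genes that share 73.9% and 38.9% of their windows with other genes. Mrpl1 with Mrpl9 followed (0.41, both in 25). Such weak values in sparse data are descriptions. All values of a cell come from its one library, so they share its depth and its number of genes detected. Mrpl21 followed the mean of the other members most closely (0.37) and Mrpl14 least (-0.09).

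The number of members detected in a cell went with the number of all genes detected there. It ranged from 19 in C81 to 67 in C72, with a median of 39 of 76. Its Spearman correlation with all genes at 1 RPKM was 0.89 over 81 cells and 0.86 within the 65 mesenchymal-like cells. Members made up 0.960 ± 0.114% of the genes detected in a cell and 0.907 ± 0.201% of all RPKM. The mean log2(RPKM + 1) of the members also went with the estimated reads (0.39 over 81 cells, 0.51 over the 77 cells without the shallow ones). The part of depth and of the number of genes detected in the results that follow was not tested.

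**Figure D3:**
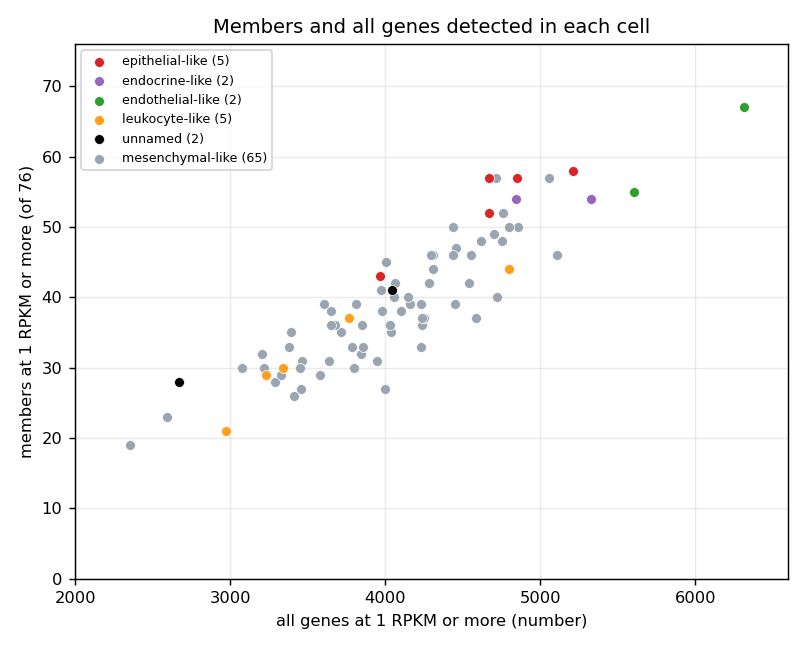
Members at 1 RPKM or more of 76 (y) against all genes at 1 RPKM or more (x) in each of 81 cells, coloured by cell class. The endothelial-like cell C72 is highest with 67 members and C81 lowest with 19, and the 7 epithelial and endocrine-like cells have 43 to 58 members.

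The gene lists compared over cells differ in size and in how widely their genes were detected. Among these lists, the mean level of the members went most with genes of oxidative phosphorylation. Its Spearman correlation with the mean log2 level of the 77 nuclear respiratory chain genes was 0.78 over 81 cells and 0.71 within the mesenchymal-like cells. The number of genes detected correlated with those 77 genes at 0.72 and with the members at 0.79. With the 82 cytosolic ribosomal genes the members correlated at 0.49 and the number of genes detected at 0.29. With genes of mitochondrial DNA transcription and maintenance the members had 0.51 and the number of genes detected 0.50. With translation factors these values were 0.34 and 0.30. For the other lists the number of genes detected had the higher value. The members correlated at 0.42 with G2 and M phase genes, where the number of genes detected gave 0.47. With subunits under other symbols the pair of values was 0.41 and 0.43, with the regulators 0.30 and 0.32, with synthetases 0.22 and 0.32, and with assembly factors 0.10 and 0.16.

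Among the 2945 other genes detected in at least 50% of cells, the 10 whose level was most like the mean of the members over 81 cells had Spearman correlations of 0.45 to 0.52, with a median of 0.13 and a 95th percentile of 0.33 over all 2945. Tubb5, a beta-tubulin gene, came first (0.52), followed by Cct5, a subunit of the chaperonin that folds tubulin and actin (0.50). Idh2 and Ogdh, mitochondrial enzymes that act on isocitrate and 2-oxoglutarate, had 0.50 and 0.46, and Atp5b, the catalytic beta subunit of the ATP synthase, 0.50. The others were Tuba1b (0.49), Pitpnb (0.46), Tubb4b (0.46), Exosc7 (0.46) and Csnk2b (0.45). Each also correlated with the number of genes detected, at 0.30 to 0.56.

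Cells of the epithelium and its endocrine descendants had more members detected than the mesenchymal-like cells. The 7 cells had 53.6 ± 5.1 members detected (43 to 58), and the 65 mesenchymal-like cells 38.1 ± 8.0 (19 to 57). The ranges overlap. All genes detected moved the same way, with 4791 ± 444 in the 7 cells and 4012 ± 561 in the mesenchymal-like cells. Members made up 1.12 ± 0.07% of the genes detected in the 7 cells and 0.945 ± 0.107% in the mesenchymal-like cells. Their share of all RPKM was 0.965 ± 0.134% in the 7 cells and 0.900 ± 0.205% in the mesenchymal-like cells, a difference within 1 SD. The 38 mesenchymal-like cells with at least as many genes detected as the lowest of the 7 cells had 42.8 ± 6.4 members detected (27 to 57).

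By member, the difference of mean log2(RPKM + 1) was at least 1 in 32 of 76 members (42.1%), against 15.7% of the 13237 genes above 0 in at least 3 cells and 24.4% of the genes detected in at least 50% of cells. The higher members were 19 of the 47 of the large subunit and 13 of the 29 of the small. In the other direction 1 member, Mrpl48, was lower by at least 1, against 4.28% of the 13237 genes. The median difference over the members was 0.91, against 0.08 over the 13237 genes and 0.35 over the widely detected ones. Against only the 38 mesenchymal-like cells with at least as many genes detected as the lowest of the 7, a choice made after seeing the data, 27 members were higher by at least 1 and the share over all genes was 13.2%. Those 38 cells still had fewer genes detected, with 4791 ± 444 in the 7 cells and 4389 ± 309.7 in the 38. Respiratory chain genes stood at a like difference, with 37 of 77 higher by at least 1 and a median of 0.97. G2 and M phase genes had 10 of 20 and a median of 1.02. Cytosolic ribosomal genes had 5 of 82 and a median of 0.29, and the median over assembly factors was -0.03.

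**Figure D4:**
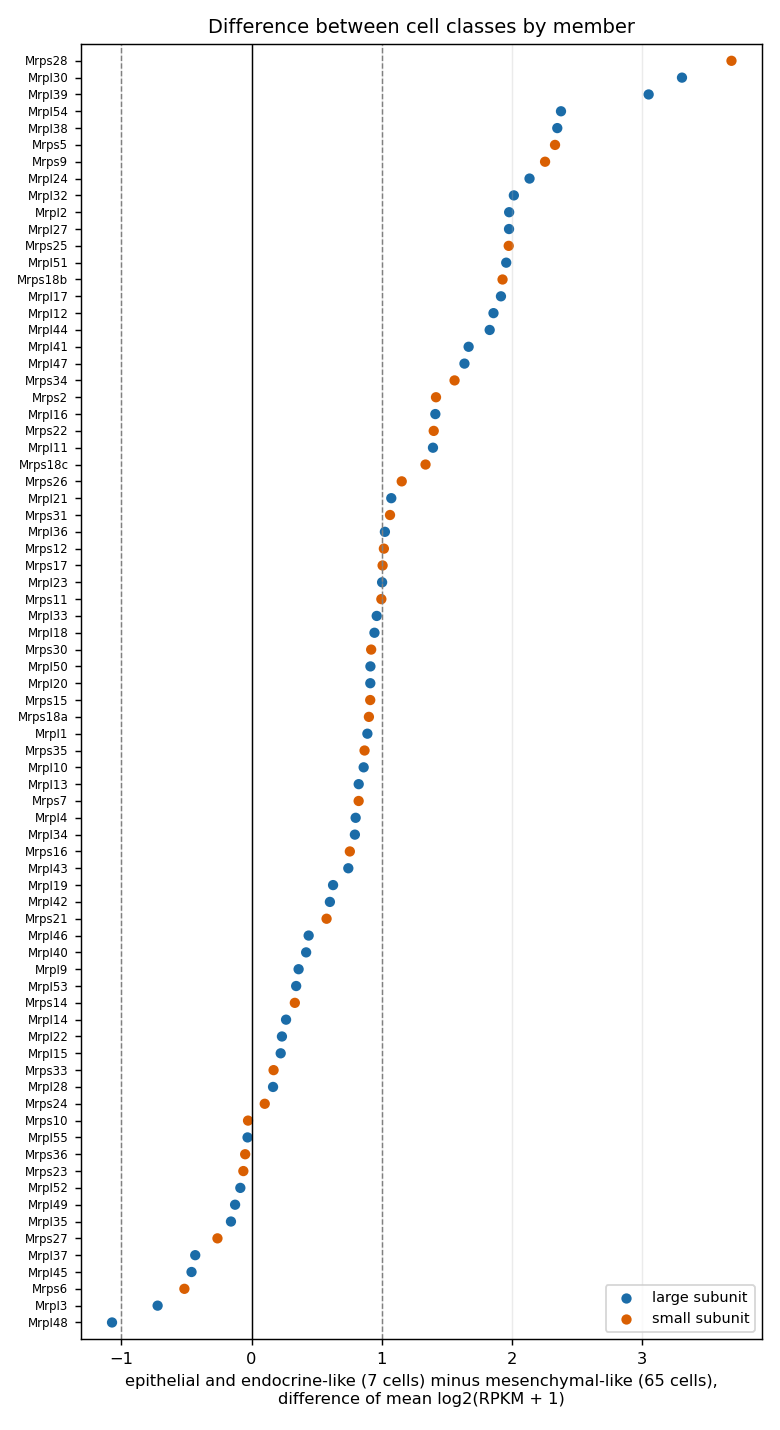
Difference of mean log2(RPKM + 1), 7 epithelial and endocrine-like cells minus 65 mesenchymal-like cells, for each of the 76 members in order of size; dashed lines mark 1 and -1. Mrps28 is at the top with 3.69, 32 members lie at 1 or above, and Mrpl48 alone lies below -1.

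The largest difference was that of Mrps28 (chromosome 3, 8802146 to 8923857, mm9), a small-subunit protein. It was detected in all 7 epithelial and endocrine-like cells, at 250.7, 26.6, 20.4, 144.7 and 103.3 RPKM in the epithelial-like cells C43, C47, C82, C91 and C95 and at 2.41 and 46.9 RPKM in the endocrine-like C24 and C56. The 65 mesenchymal-like cells ranged from 0 to 280.8 RPKM with a median of 0, and 23 of them had it detected. All 7 cells lay above the mesenchymal-like median and inside the mesenchymal-like range, and the difference of the log2 means was 3.69 (5.49 ± 2.08 against 1.801 ± 2.58, SD over cells).

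Mrpl30, of the bacterial L30 family (chromosome 1, 37947398 to 37955178), was likewise present in all 7. Its values were 41.4, 127.4, 188.4, 140.4 and 164.9 RPKM in C43, C47, C82, C91 and C95, and 35.5 and 164.2 RPKM in C24 and C56. In the mesenchymal-like cells it ranged from 0 to 339.8 RPKM with a median of 11.1, with 37 of 65 cells detected, and the difference was 3.31. Mrpl39, a large-subunit protein related to threonyl-tRNA synthetases (chromosome 16, 84717825 to 84735547), had 9.02, 258.4, 19.8, 26.5 and 86.9 RPKM in the same epithelial-like cells and 5.30 and 7.58 RPKM in C24 and C56. The mesenchymal-like cells ranged from 0 to 88.5 RPKM with a median of 0.143, with 25 of 65 detected, and the difference was 3.05. For both genes no cell of the 7 was at 0.

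Mrpl54 and Mrpl38 followed with differences of 2.38 and 2.35, each detected in 5 of the 7 cells. Of the 65 mesenchymal-like cells 25 had Mrpl54 detected and 13 had Mrpl38. Mrps5 (2.33), Mrps9 (2.26), Mrpl24 (2.14) and Mrpl32 (2.02) came next. At the other end Mrpl48 had a difference of -1.07, with 2.62, 0.233, 8.56, 0 and 0.242 RPKM in C43, C47, C82, C91 and C95, 6.97 and 17.5 RPKM in C24 and C56, and a range of 0 to 167.3 RPKM with a median of 7.26 in the mesenchymal-like cells. Mrpl48 overlaps Rab6a on the other strand over 411 bases. Mrpl3 (-0.72), Mrps6 (-0.52), Mrpl45 (-0.46) and Mrpl37 (-0.43) were lower by less than 1.

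The same 7 cells were not free of mesenchymal markers, nor were most other cells. Of all the cells, 78 had at least 3 mesenchymal markers at 10 RPKM, leukocyte-like and endothelial-like cells among them. The 65 mesenchymal-like cells are those of the 78 that no earlier list named, and the count of 3 markers alone hardly set them apart. Of the 12 mesenchymal markers 3 to 5 reached 10 RPKM in each of the 7 cells. Their summed level there was 77.8 to 377.8 RPKM, and only Lum was at 0 in all 7. In the mesenchymal-like cells 3 to 8 markers reached 10 RPKM, with a summed level of 210.8 to 1305 RPKM. The 10 epithelial markers summed to 338.7 to 1774 RPKM in the 7 cells and to 0 to 346.8 RPKM in the mesenchymal-like cells. The part of mixed cells in the differences was not tested. The median of the estimated reads was 4.11M in the 7 cells and 3.53M in the mesenchymal-like cells.

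Other classes held few cells. The 2 endothelial-like cells, C22 and C72, had 55 and 67 members detected, and of all 81 cells they had the most genes detected, 5606 and 6311. The 5 leukocyte-like cells had 32.2 ± 8.7 members detected (21 to 44) among 3622 ± 716 genes. Their large-subunit level of 37.5 ± 8.3 RPKM and small-subunit level of 26.1 ± 5.2 RPKM lay within 1 SD of the levels over all cells.

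In the genome, members often stood head to head with another gene. On the deposited mm9 coordinates 26 of 76 members (34.2%) had a start within 1000 bases of the start of a gene pointing the other way, against 8.77% of all gene symbols and 14.7% of those detected in at least 50% of cells. The 25 pairs had a median gap of 142 bases. Partners included other genes of mitochondrial function, such as Ndufb5, a complex I subunit gene, beside Mrpl47, Sars2, the mitochondrial seryl-tRNA synthetase gene, beside Mrps12, and Peo1, the mitochondrial DNA helicase gene, beside Mrpl43. They also included Tcp1 beside Mrpl18, Psma2 beside Mrpl32 and Hira beside Mrpl40. Over cells the levels of a pair were barely related, with Spearman correlations of -0.19 to 0.25 and a median of 0.04, close to the 0.05 between any 2 members. Mrpl47 averaged 28.9 RPKM where Ndufb5 averaged 140.2 RPKM, and Mrps12 averaged 48.7 RPKM where Sars2 averaged 2.80 RPKM.

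One pair joined the subunits. Mrpl46 (chromosome 7, 85920227 to 85927975, minus strand, mm9) and Mrps11 (85928017 to 85937874, plus strand) start 42 bases apart. Their means were close, 52.6 ± 100.8 RPKM for Mrpl46 and 56.6 ± 95.4 RPKM for Mrps11, and 42 and 44 cells had them detected. Both were detected in 26 cells and neither in 21, and the Spearman correlation was 0.18. Without the 4 shallow cells the means were 43.1 RPKM for Mrpl46 and 57.7 RPKM for Mrps11. In C56, which is not shallow, both were detected but at unlike levels, Mrpl46 at 1.41 RPKM and Mrps11 at 101.3 RPKM. With 26 cells shared out of 42 and 44, the cells with one gene detected were in part not those with the other.

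**Figure D5:**
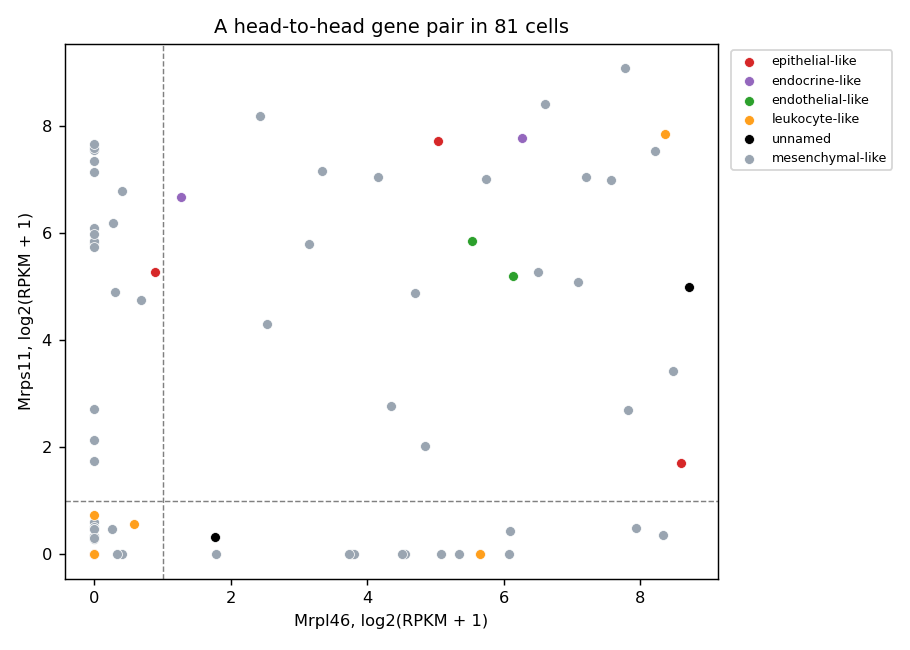
Log2(RPKM + 1) of Mrpl46 (x) and Mrps11 (y) in 81 cells, coloured by cell class; dashed lines mark 1 RPKM. Both genes were detected in 26 cells and neither in 21, whose points overlie each other near the origin.

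Sequences at the starts of the members were taken from RefSeq (GRCm38.p6), from 250 bases before to 50 after each start. They were found for 67 of 76 members, in 73 windows of 300 bases. On either strand, the NRF1 motif (GCGCA, any base, then GCGC) was in 16.4% of the member windows, against 4.60% of all 32851 windows and 13.1% of the 2799 windows of genes detected in at least 50% of cells. The ETS-family motif CCGGAAG was in 32.9%, against 8.86% and 19.9%. The YY1 motif AAGATGGCG was in 10.96%, against 1.40% and 3.75%. The TATA motif TATAAA was in 6.85%, against 13.6% and 7.43%. At least one of the first 3 was in 53.4% of the member windows, of 39 members, against 13.6% and 32.7%. The 12 members with the NRF1 motif had a median mean of 35.6 RPKM and the matched members without it 21.8 RPKM. With and without the ETS motif the medians were 26.8 and 25.5 RPKM, and with and without the YY1 motif 24.5 and 25.5 RPKM. NRF1, the ETS-family GABP and YY1 are known regulators of nuclear genes for mitochondrial proteins, and a match here is only a run of letters.

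The windows below are shown for the pair that joins the subunits and for 3 of the 4 highest members, each with a motif match. Those of Mrpl39 and Mrpl30 are shown because each has a large class difference and a match. All are read 5′ to 3′ on the strand of the gene. Capitals mark the YY1 motif in Mrps11 and Mrpl42 (its reverse complement in Mrps11), the ETS motif in Mrpl33 and Mrps18c (reverse complement in Mrps18c), and the NRF1 motif in Mrpl39 and Mrpl30 (reverse complement in Mrpl30). The Mrps11 window (chr7:78782881-78783180, plus strand) also holds the Mrpl46 start, at base 78783089, and 141 of its bases are in the Mrpl46 window. The others are Mrpl42 (chr10:95501900-95502199, minus strand), Mrpl33 (chr5:31613701-31614000, plus strand), Mrps18c (chr5:100798509-100798808, plus strand), Mrpl39 (chr16:84735195-84735494, minus strand) and Mrpl30 (chr1:37890227-37890526, plus strand).
Mrps11: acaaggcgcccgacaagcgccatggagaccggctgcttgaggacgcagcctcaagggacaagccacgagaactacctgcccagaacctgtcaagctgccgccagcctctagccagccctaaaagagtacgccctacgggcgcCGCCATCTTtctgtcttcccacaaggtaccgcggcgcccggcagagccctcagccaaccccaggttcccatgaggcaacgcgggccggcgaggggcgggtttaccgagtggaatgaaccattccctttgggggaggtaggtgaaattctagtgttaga
Mrpl42: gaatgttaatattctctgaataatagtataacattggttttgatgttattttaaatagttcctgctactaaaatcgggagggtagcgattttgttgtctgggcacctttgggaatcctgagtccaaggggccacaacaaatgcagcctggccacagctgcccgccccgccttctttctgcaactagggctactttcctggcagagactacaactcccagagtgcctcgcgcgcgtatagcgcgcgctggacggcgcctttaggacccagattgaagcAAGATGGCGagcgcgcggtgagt
Mrpl33: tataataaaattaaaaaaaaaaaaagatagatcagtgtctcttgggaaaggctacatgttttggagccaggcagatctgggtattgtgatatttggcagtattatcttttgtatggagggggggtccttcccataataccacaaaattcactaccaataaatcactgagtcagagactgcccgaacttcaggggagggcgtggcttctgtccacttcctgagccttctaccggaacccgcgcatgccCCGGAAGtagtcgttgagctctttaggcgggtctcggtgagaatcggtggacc
Mrps18c: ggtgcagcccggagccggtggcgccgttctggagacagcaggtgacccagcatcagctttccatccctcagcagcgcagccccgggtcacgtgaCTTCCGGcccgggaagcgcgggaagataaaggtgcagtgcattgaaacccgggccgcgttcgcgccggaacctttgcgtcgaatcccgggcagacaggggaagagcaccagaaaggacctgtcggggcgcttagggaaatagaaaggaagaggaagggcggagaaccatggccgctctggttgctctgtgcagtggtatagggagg
Mrpl39: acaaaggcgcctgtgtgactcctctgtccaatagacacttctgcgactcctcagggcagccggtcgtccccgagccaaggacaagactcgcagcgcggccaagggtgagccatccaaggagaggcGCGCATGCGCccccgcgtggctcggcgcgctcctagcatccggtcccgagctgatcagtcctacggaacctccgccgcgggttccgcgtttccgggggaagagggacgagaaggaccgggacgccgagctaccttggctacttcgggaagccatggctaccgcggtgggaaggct
Mrpl30: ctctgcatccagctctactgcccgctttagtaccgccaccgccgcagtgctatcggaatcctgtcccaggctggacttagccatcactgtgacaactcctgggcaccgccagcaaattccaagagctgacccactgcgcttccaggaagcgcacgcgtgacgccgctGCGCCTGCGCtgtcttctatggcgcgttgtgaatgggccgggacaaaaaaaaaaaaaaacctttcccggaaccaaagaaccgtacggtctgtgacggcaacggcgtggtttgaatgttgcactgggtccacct

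The match lies 108 bases before the start site in Mrps11, 3 before it in Mrpl33, 156 before it in Mrps18c, 125 before it in Mrpl39 and 83 before it in Mrpl30. In Mrpl42 it lies after the start site, in the transcribed part. Mrpl42, detected in 75 cells, and Mrps11, detected in 44, both carry the YY1 letters. Mrpl30 and Mrpl39, with differences between classes of 3.31 and 3.05, were shown because they carry a match, so their NRF1 letters do not link motif and difference. Over the 12 members with the NRF1 motif the difference ran from -0.46 (Mrpl45) to 3.31 (Mrpl30). Besides Mrpl30 and Mrpl39, it was at least 1 in Mrps9 (2.26), Mrpl32 (2.02), Mrpl17 (1.92), Mrpl12 (1.86), Mrpl44 (1.83) and Mrps26 (1.15). It lay between 0 and 1 in Mrps21 (0.58), Mrpl9 (0.36) and Mrpl14 (0.27). Mrps28, with the largest difference (3.69), was not among the members with a match, and 9 members had no window to search. A relation of motif and class difference was not tested.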

How the data were processed

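Per the labels, cDNA of each captured cell was made with the SMARTer kit, libraries with Nextera XT, and each library was read in 2 lanes under a pair of indices. CASAVA 1.8.2 and mm9 are named in the submitters' processing notes. What aligner, counting tool, annotation release and cell filters were used is not given in the sources used here.

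No unit is stated in the deposited table. The authors' values were read as RPKM since, multiplied by transcript length (GENCODE vM21, used for lengths and shared windows only), they fall on steps of 1 read: over 18055 rows, a median over cells of 81.0% of low values lay within 0.15 of a whole number of reads (lowest 78.0%). The step gave the estimated reads of each cell. As the depth is only estimated, no count test was run.

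With 1 group and no animal named, no p-value was made. Means, SDs over cells, Spearman correlations and differences of mean log2(RPKM + 1), a scale that understates the change of low genes, were computed with Python 3.11.15, numpy 2.4.6 and pandas 2.3.3. Differences of at least 1 are counted beside the same share over all genes. The class difference was run on simulated data with known changes, drawn gene by gene from the mesenchymal-like cells. That run looked at the sign and median of the change. It did not cover the count of differences of at least 1, nor classes that differ in genes detected. Intervals of shares are exact Clopper-Pearson (95%) and cover counting error only. The members, gene lists, markers and thresholds were chosen with earlier results of these data known. Named are the highest and lowest members of each subunit, members of known role, the largest class differences, the 10 most like genes and the ends of the pathway lists, of which the text gives a part. The head-to-head pairs and motifs, and the genes named for them, were chosen during the work. Members that share 50-base windows with other genes are uncertain: 5 members share over 50% of their windows (Mrpl53, Mrpl23, Mrps25, Mrps18b and Mrps34) and 46 under 10%. Of the members 7 have several transcript rows, with means differing at most 1.41-fold, in Mrpl15. Members were detected in 53.1% of 1163 member and cell pairs that share an index with the highest cell of the member, and in 51.1% of 4917 pairs that share none. Promoters are RefSeq sequences (GRCm38.p6), matched by symbol and never combined with mm9 coordinates. Alternatives were other thresholds, pseudocounts, transcript rows, subunit assignments, marker levels and sets of cells.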

Additional observations from a re-analysis of the deposited data

Results flagged for a closer look

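Among the 7 epithelial and endocrine-like cells, C91 had 43 of the 76 members detected, where the other 6 had 52 to 58. Its gap to the next cell was large for the range of the group. This was seen in 1 of 12 combinations of class and quantity looked at. The gap rule that picked it is set to flag about 1 in 20 groups of independent, normally spread values. Whether the counts of these cells are such values was not tested. C91 also had the fewest genes detected of the 7, 3965, and its part in this count was not tested. Without C91, 38 members were higher by at least 1 in the remaining epithelial and endocrine-like cells (17.5% of all genes), against 32 with it (15.7%).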

How the results depend on the processing

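Of 78 alternative values 66 stayed near the value reported, within 1 SD over cells for a level and within 1.5 times for a count or a correlation. This is a wide rule. For the large minus small difference the SD over cells (0.646) was larger than the difference (0.489), so a value near 0 would also have passed. The large minus small difference stayed above 0 (0.36 to 0.56 over 10 alternatives), and the correlation of the subunit levels lay between 0.30 and 0.50 over 8. With the median over members in place of the mean, the levels were 1.98 RPKM for the large and 0.435 RPKM for the small subunit, since about 50% of members are at or near 0 in a cell. At 5 RPKM 25 members were detected in at least 50% of cells. The count of members higher by at least 1 in epithelial and endocrine-like cells (32) was 49 at a pseudocount of 0.1 (28.4% of all genes tested, given in parentheses for each setting) and 9 at 10 (3.57%). It was 30 in cells 1 to 48 (20.7%) and 38 in cells 49 to 96 (21.5%), and 32 to 38 without each of the 7 cells in turn (16.2% to 17.5%). The count of lower members (1) was 0 at a pseudocount of 10 (0.657%), 5 in cells 1 to 48 (10.2%), 3 in cells 49 to 96 (6.90%), 3 without the shallow cells (5.07%), 2 against the 38 mesenchymal-like cells with a floor on genes detected (6.43%), and 0 to 3 without each of the 7 cells in turn, with 0 without C91 (4.87%) and 3 without C43 (5.03%). Apart from the construction of these settings, the cause was not tested. The filter on members above 0 in at least 3 cells removed no member, so the values under it could not move. No paired analysis was possible because the labels give 1 group. Depth limits the low members most, as 1 RPKM in 1 kb is 3.53 reads in the median cell.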
